A study of Danio rerio with 4 samples.

Results

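The genes *agr1*, *anxa1c*, *muc13a*, *cmah*, *ponzr3* and *ponzr4* were chosen by symbol, as secretory and mucous genes of epithelia, from the 756 genes that the study's own comparison of sorted cells had selected. All 6 were found in the table, and all 6 had fewer reads in cells sorted as Venus positive and mCherry negative than in cells negative for both reporters (double negative). Because the authors' adjusted p was under 0.05 for each of the 756 genes, the difference between the groups is given for these 6 genes as a description, without a test. Heads were dissected at 48 hpf from zebrafish larvae of wild-type genotype with a pair of reporter transgenes, *TgBAC(apln:Venus-PEST)* together with *Tg(kdrl:Hsa.HRAS-mCherry)*, which both groups share. In this double transgenic, *apln* sequences of a bacterial artificial chromosome drive a short-lived Venus, and *kdrl* sequences drive a membrane-bound mCherry in endothelial cells. The 2 Venus positive libraries therefore come from *apln* reporter cells after removal of mCherry positive cells, and the 2 double negative libraries from the other head cells, a population labelled as mixed. In bulk libraries of this kind, fewer cells of a type and less RNA per cell cannot be told apart.

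Epithelia that face water or a gut lumen make a mucous coat. Secretory cells fold mucins in the endoplasmic reticulum, add sugars that often end in sialic acid, and release them or keep them at the apical membrane. Agr proteins are disulfide isomerase relatives of the endoplasmic reticulum, and in mammals the relative AGR2 is needed for mucin production. Mucin 13, the product of *muc13a*, is a membrane-bound mucin of the apical surface in mammals. The enzyme encoded by *cmah* converts CMP-bound N-acetylneuraminic acid into its N-glycolyl form and so alters the sialic acid used at the ends of sugar chains. Annexins bind acidic phospholipids in the presence of calcium, and annexin A1 is abundant in mammalian squamous and airway epithelia. The ponzr genes encode small cysteine-rich proteins related to onzin (PLAC8).

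*agr1* (NCBI gene 335309) had the highest level of the 6 genes. It had 7870.0 and 11717 normalized read counts in double negative replicates 1 and 2, against 146 and 92.0 in the Venus positive libraries, which the table numbers 3 and 4. A normalized read count is the number of reads divided by the size factor of the library, which the authors set to make libraries comparable. The double negative mean of 9793 ± 2720.2 and the Venus positive mean of 119 ± 38.1 (SD, n = 2 libraries each) lay 82.4-fold apart. On the scale of log2(normalized read count + 1) the difference was -6.36 (standard error 0.48, limma). Both Venus positive libraries still held many reads of *agr1*, 116 in library 3 and 106 in library 4.

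*anxa1c* (494158), an annexin A1 gene, came next. Its normalized read counts were 2724 and 3302 in the double negative cells, against 32.7 and 79.8 in libraries 3 and 4 of the Venus positive cells. The mean was 3013 ± 409 in the former and 56.3 ± 33.3 in the latter (SD, n = 2), or 53.6-fold lower, with a log2 difference of -5.85 (standard error 0.56). As for *agr1*, the Venus positive libraries kept reads, 26 and 92. The groups did not overlap for either gene, which held for all 756 genes of the table, 271 lower and 485 higher.

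The other 4 genes were nearly without reads in the Venus positive cells. *ponzr4* (557748) had 256 and 389 normalized read counts in the double negative libraries. Its Venus positive level was 1 read in library 3, which is 1.26 normalized read counts, and 0 reads in library 4. *ponzr3* (100004954) had 117 and 255 in the double negative libraries and again 1 and 0 reads in libraries 3 and 4. *muc13a* (100538303) had 99.4 and 277 in the double negative libraries, also with 1 and 0 reads in the Venus positive libraries. These 3 genes thus had a single Venus positive read each, all in library 3. *cmah* (431739) had 186 and 73.6 in the double negative libraries, and its only Venus positive read, 0.87 normalized read counts, was in library 4. A library with 0 reads allows up to 3 reads, which is 3.77 normalized read counts in library 3 and 2.60 in library 4. Intervals and limits of this kind cover counting error only, since Smart-seq2 amplifies cDNA without molecular identifiers.

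**Figure D1:**
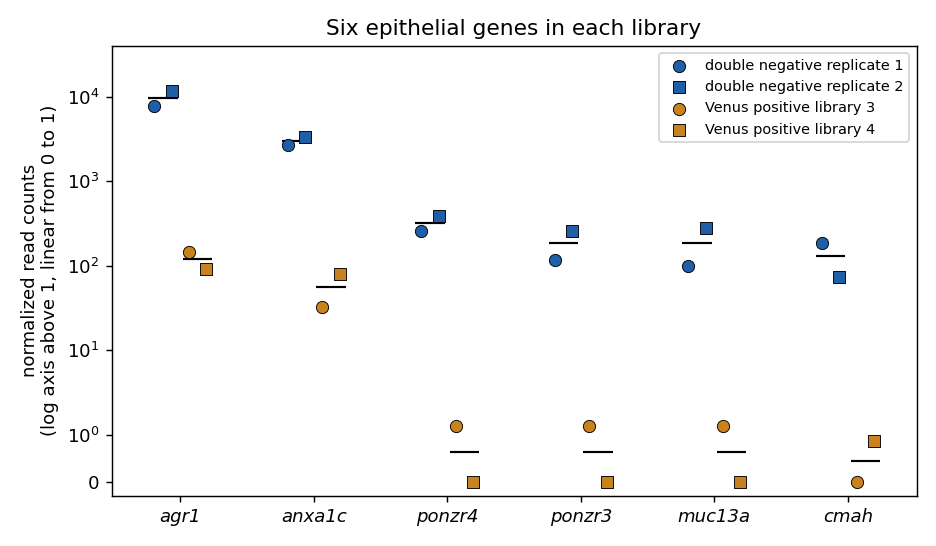
Normalized read counts (log axis above 1, linear from 0 to 1) of the 6 genes in the 2 double negative and 2 Venus positive libraries, with a bar at each group mean. *agr1* and *anxa1c* stay between 32.7 and 146 in Venus positive cells, where the other 4 genes lie at 0, 0.87 or 1.26.

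Of all genes tested in the table, 35.8% were called lower and 63.8% higher in the Venus positive cells (limma, Benjamini-Hochberg adjusted p under 0.05, 754 genes with at least 10 reads in at least 2 libraries). With size factors recomputed over the table's genes, 270 genes were called lower and 68 higher, in place of 270 and 481. These factors shift the median log2 difference by -1.86 by construction, since most listed genes are higher. A higher call lost under them can follow from this shift alone. The 6 genes were among the 270 called lower, which their choice had fixed. Each gene of the table had passed the authors' test of the same comparison. Calls of listed genes are therefore descriptions and add no independent support. Without double negative replicate 1 only 1 of the 6 was called (102 of all genes), and without replicate 2 only 2 (105 of all genes), each with the lone double negative library assumed to vary like the Venus positive ones. The log2 difference had a median of -4.77 over the 271 lower genes and ran from -5.85 to -7.72 over the 6. By size of decrease, *ponzr4* was rank 2 of the lower genes, *ponzr3* rank 13, *muc13a* rank 15, *cmah* rank 24, *agr1* rank 26 and *anxa1c* rank 56. For the 4 genes with a single Venus positive read this order depends on the 1 added before taking logs.

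Ratios of pooled reads do not depend on that choice. Over both libraries of each group, *agr1* in the Venus positive cells was at 1.19% of its double negative level (exact 95% counting interval 1.04% to 1.36%) and *anxa1c* at 2.03% (1.68% to 2.44%). *ponzr4* was at 0.16% (0.0041% to 0.91%), so the upper bound of its counting interval lay under the lower bound of *agr1*. *ponzr3* and *muc13a*, with the same total of 392 reads in the double negative libraries, were each at 0.29% (0.0073% to 1.61%), and *cmah* was at 0.38% (0.0095% to 2.12%). The intervals of these 3 genes include the value of *agr1*, so a share below that of *agr1* was not shown for them. At the share of *agr1*, *cmah* would have had 1.25 and 1.81 reads in libraries 3 and 4, and *ponzr4* 3.11 and 4.51 reads. *ponzr3* would have had 1.80 and 2.60 reads, and *muc13a* 1.82 and 2.63.

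Such low read numbers were not rare. In the table, 78 of the 271 lower genes had 0 or 1 read over both Venus positive libraries, but only 17 of these had a double negative mean of at least 100 normalized read counts. *ponzr4* was second in level among the 78, with *muc13a* rank 5, *ponzr3* rank 7 and *cmah* rank 11.

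In double negative cells the order of the genes differed between reads and length-corrected levels. By TPM, which divides reads by transcript length, *agr1* had 1484 and 1661 in replicates 1 and 2, *anxa1c* 314 and 288, *ponzr4* 32.7 and 37.4, and *ponzr3* 21.4 and 34.8. *cmah* had 10.99 and 3.31 TPM, and *muc13a* 1.35 and 2.87. The libraries of neighbouring genes in this order did not overlap for *agr1* and *anxa1c* or for *anxa1c* and *ponzr4*, nor for *ponzr3* and *cmah* or *cmah* and *muc13a*, but did overlap for *ponzr4* and *ponzr3*. *muc13a* and *ponzr3* had equal read totals but mean TPM values of 2.11 and 28.1, since 1 TPM of *muc13a* took 89.6 reads in replicate 1 and 1 TPM of *ponzr3* took 6.70. Among the 271 lower genes, *agr1* ranked 13 by TPM, *anxa1c* 23, *ponzr4* 85, *ponzr3* 95, *cmah* 172 and *muc13a* 240. The authors' mean TPM in the Venus positive cells was 21.1 for *agr1*, 6.81 for *anxa1c* and at most 0.095 for the other 4 genes.

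**Figure D2:**
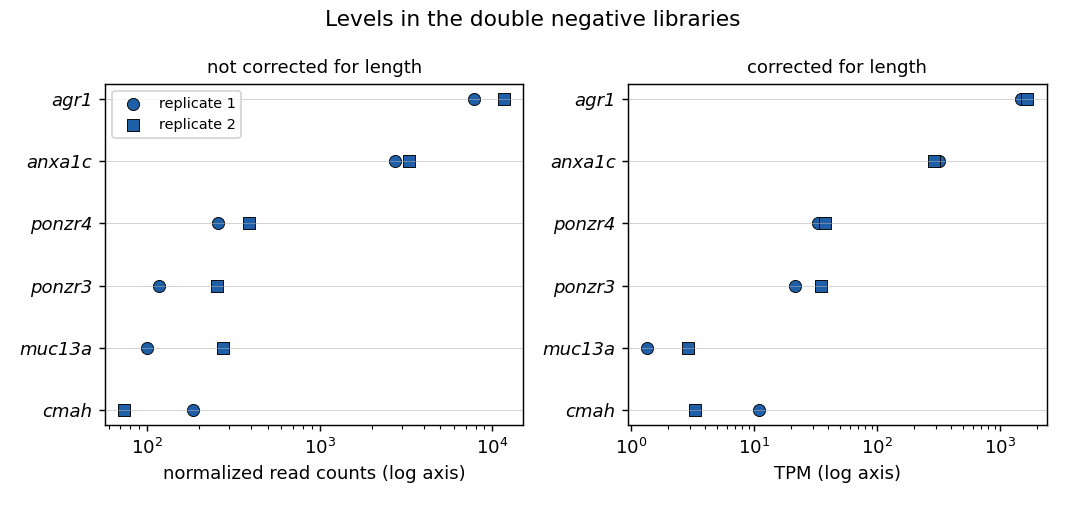
Levels of the 6 genes in double negative replicates 1 and 2, as normalized read counts (left, log axis) and as TPM (right, log axis). *muc13a* moves from 99.4 and 277 normalized read counts to 1.35 and 2.87 TPM, the lowest mean of the 6.

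The double negative libraries were not alike for these genes. Of the 6, *agr1*, *anxa1c*, *ponzr3*, *ponzr4* and *muc13a* had more normalized read counts in replicate 2, and *cmah* had fewer. The ratio of replicate 2 to replicate 1 was 2.79 for *muc13a* (exact 95% counting interval 2.24 to 3.48), 2.17 for *ponzr3* (1.76 to 2.68), 1.52 for *ponzr4* (1.301 to 1.77), 1.49 for *agr1* (1.45 to 1.53) and 1.21 for *anxa1c* (1.15 to 1.27). For *cmah* it was 0.40 (0.30 to 0.52). None of these intervals includes 1, so each difference was larger than counting error, although 2 libraries give no other error for it. On the TPM scale the order of the replicates turned for *anxa1c* and held for the other 5 genes.

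Over the 271 lower genes the median log2 ratio of replicate 2 to replicate 1 was 0.28, and 61.6% of these genes were higher in replicate 2. Over all genes of the table the median was 0.29. Against the lower genes, *cmah* at -1.32 was lower than all but 1.85%, and *muc13a* at 1.47 was higher than 94.1%. The other members lay further inside, with *anxa1c* higher than 48.7%, *agr1* than 61.6%, *ponzr4* than 63.8% and *ponzr3* than 86.0%. Of the 19 lower genes from a list of 48 periderm and keratinocyte genes, 13 were higher in replicate 2, with a median log2 ratio of 0.31, which is close to the value over all lower genes. The summed normalized read counts of the genes of that list in the table went the other way, from 389013 in replicate 1 to 316485 in replicate 2. Most of this sum was *krt4*, a keratin of the surface layer, at 283412 and 178065. *krt4* alone fell by more than the sum did, so the rest of the list together did not fall. Of the 16 lower genes from a list of 26 erythrocyte genes, 12 were higher in replicate 2, with a median of 0.82.

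**Figure D3:**
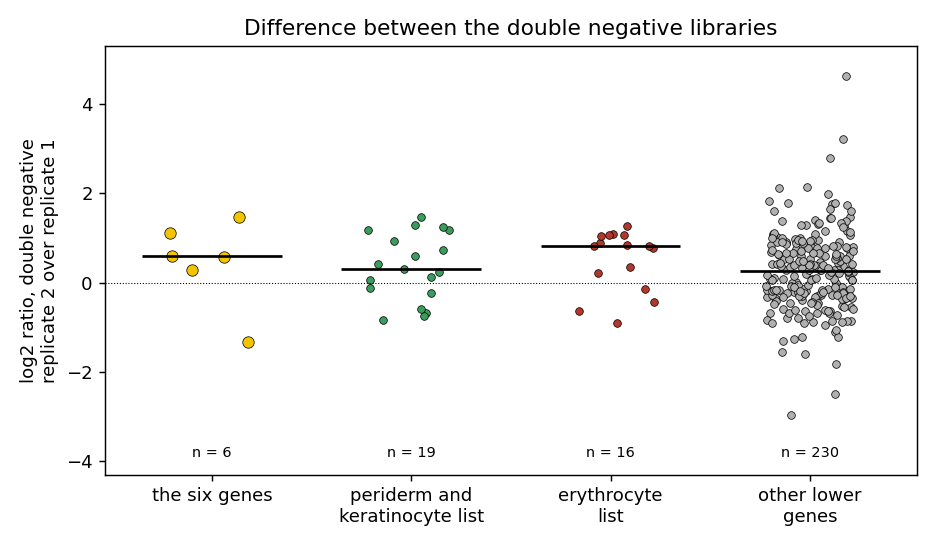
Log2 ratio of double negative replicate 2 to replicate 1 for the 6 genes, for lower genes of the periderm and keratinocyte list and of the erythrocyte list, and for the other lower genes of the table, with a bar at each median. *cmah* is the only 1 of the 6 below 0, at -1.32.

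The Venus positive libraries differed too. *agr1* was higher in library 3, with a ratio of library 4 to library 3 of 0.63 (exact 95% counting interval 0.48 to 0.83), and *anxa1c* was higher in library 4, with a ratio of 2.44 (1.57 to 3.93). *agr1* therefore had 2.89 and 3.55 times the normalized read counts of *anxa1c* in the double negative libraries, 4.46 times in library 3 and 1.15 times in library 4. This ratio lay above both double negative values in library 3 and below both in library 4.

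The symbols name the genes only, so the label as mucous genes was set against other genes of mucus-producing cells. Of a list of 33 such genes, *agr1* was in the table and called lower, and *foxa1*, a forkhead transcription factor, was called higher, at 79.7 and 206 normalized read counts in the double negative and 450.0 and 607 in the Venus positive libraries. The call of *foxa1* was lost when any of the 4 libraries was left out and with size factors recomputed over the table (log2 difference 0.16 in place of 2.02). The other 31, among them *agr2*, the mucous cell regulator *spdef* and the gel-forming mucins *muc2.1*, *muc5.1* and *muc5.2*, were not analysed here. *muc13a* was the only gene of a list of 21 mucins in the table, and *cmah* the only gene of 40 that act in sialic acid synthesis, transfer or removal. By symbol or synonym, only 22 of the 33 and 7 of the 21 were found in RefSeq, and 39 of the 40. The table holds genes that passed the authors' test, so a missing gene says nothing of its level. The mucous character of the source cells was therefore not shown by a set of markers in these data.

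The ponzr genes lie together. In the RefSeq gene table, of the GRCz12tu assembly, *ponzr3* and *ponzr4* are neighbours with *ponzr5* on the other side of *ponzr3*, and a gene model of *ugt5g1*, which encodes a glucuronosyltransferase, spans both. No source used here states that reads were assigned by strand. Only the spans of the gene models were compared, and the authors' gene set was not checked for these models. Whether overlapping models shared reads was therefore not tested. The same holds for *anxa1c* and *cmah*, which the models *LOC141385671* and *LOC141381553* overlap. Near-identical ponzr copies could share reads. *ponzr4* had 2.18 and 1.53 times the normalized read counts of *ponzr3* in double negative replicates 1 and 2. Of a list of 16 ponzr and PLAC8 family genes, 11 were found in RefSeq by symbol or synonym. In the table were 3, and all 3 were called lower, beside 35.8% of all genes tested. For *ponzr3* and *ponzr4* their choice had fixed this call. The authors' test of the same comparison had likewise selected *plac8l1* for the table. The third, *plac8l1*, was less abundant, with 38.6 and 52.1 normalized read counts in the double negative against 1 and 0 reads in libraries 3 and 4. With either double negative library left out, the calls of all 3 were lost. Without replicate 1 the log2 difference was -7.41 for *ponzr3*, -8.02 for *ponzr4* and -5.14 for *plac8l1*. Without replicate 2 it was -6.30, -7.42 and -4.72.

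Annexin genes split into levels. Of 17 annexin genes, 6 were in the table when matched by symbol. Of these, 5 were called lower and 1 higher, beside 35.8% and 63.8% of all genes tested. The NCBI gene ID adds *anxa1d*, listed in the table as *zgc:110283* and also called lower. *anxa1b*, which lies next to *anxa1c* in the RefSeq gene table with *anxa1d* on the other side, had 341 and 516 normalized read counts in the double negative and 1.26 and 13.9 in the Venus positive libraries. Its Venus positive mean rests on 1 and 16 reads. It was 1.77% of the double negative mean, close to the 1.87% of *anxa1c* computed in the same way. *anxa1d* stood at 19.0%, *anxa1a* at 20.6%, *anxa3a* at 23.7% and *anxa2a* at 24.5%. *anxa4* was higher in the Venus positive cells, at 2323 and 1738 normalized read counts against 520.1 and 749, but its log2 difference of 1.68 turned to -0.18 with size factors recomputed over the table. The calls of the 6 annexin genes matched by symbol were lost with double negative replicate 1 or replicate 2 left out. In both fits 5 of them stayed below 0 and 1 above, which was fixed because the groups of each gene did not overlap. Both *anxa1b* and *anxa1c* were lower in library 3 than in library 4. *anxa1b* was at 3.85% of *anxa1c* in library 3 and 17.4% in library 4. In double negative replicates 1 and 2 it was at 12.5% and 15.6%. Near-identical copies may share reads, which was not tested.

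**Figure D4:**
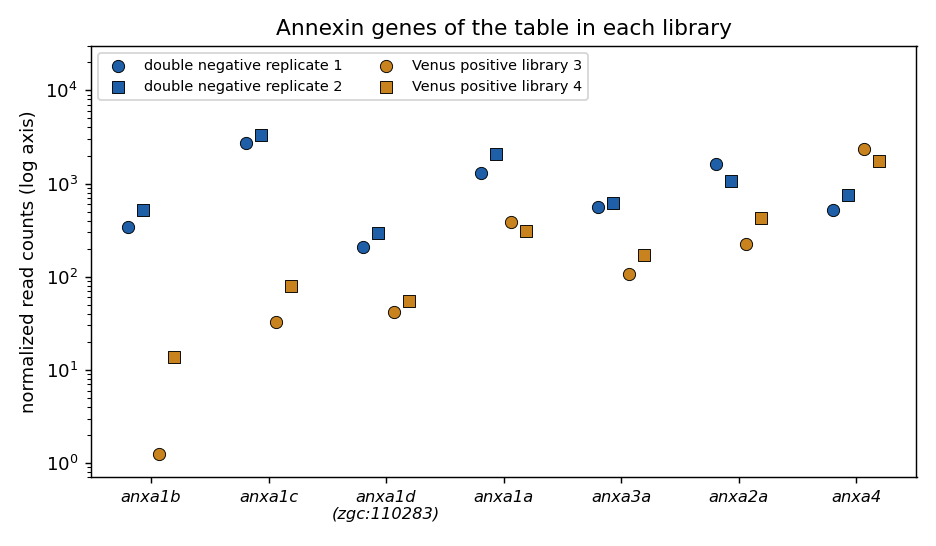
Normalized read counts (log axis) of the 7 annexin genes of the table in each library, ordered by the Venus positive mean as a share of the double negative mean. *anxa1b* is at 1.26 and 13.9 and *anxa1c* at 32.7 and 79.8 in the Venus positive libraries, while *anxa4* is at 1738 and 2323 there.

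Markers of other epithelial cells were lower with the 6 genes. Of the 48 periderm and keratinocyte genes, 21 were in the table, of which 19 were called lower and 2, *krt94* and *pkp3b*, higher. Over all genes tested, 35.8% were called lower and 63.8% higher. Matched by gene ID, *krt18* and *zgc:77517* were also higher. Of these 4, 0 were called with size factors recomputed over the table (limma, adjusted p 0.25 to 0.99), and *pkp3b* and *krt18* lay below 0, at -0.13 and -0.35. Of the 19, 7 were called without double negative replicate 1 and 6 without replicate 2. The 21 genes summed to 316485 to 389013 normalized read counts in the double negative and 32133 to 60756 in the Venus positive libraries, with none at 0 in both Venus positive libraries. Of these, *krt4* held 178065 to 283412 and 17501 to 44719. All 6 listed of 43 epithelial junction and regulator genes were called lower, beside 35.8% of all genes tested. Among them were the claudin *cldne*, the occludin *oclnb* and the transcription factor *grhl1*. The 6 summed to 2392 to 2581 normalized read counts in the double negative and 272 to 360.1 in the Venus positive libraries. Of these 6, 1 was called without double negative replicate 1 and 2 without replicate 2. Of 36 ionocyte genes only the sodium pump subunit *atp1a1a.4* was listed, with 131 and 75.7 normalized read counts and 1 and 0 reads. The part of these cells in the levels of the 6 genes was not tested.

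The share that remained was lower for the 6 genes than for most of these epithelial markers. This is a description only, since the 6 genes were chosen with earlier results of these data known. For 4 of them the share rests on a single read. The Venus positive mean was 0.19% to 1.87% of the double negative mean for the 6, against a median of 3.54% over the 271 lower genes. It was 1.33% to 29.1% with a median of 12.3% for the 19 periderm and keratinocyte genes, and 2.87% to 21.2% for the junction and regulator genes. *icn2*, an ictacalcin-type calcium-binding protein, was the keratinocyte gene with the lowest share. For the 16 erythrocyte genes the median was 1.54%. Their summed normalized read counts were 180777 and 329743 in the double negative libraries, against 4704 and 3437 in libraries 3 and 4, where *hbae5* and *gata1a* had 0 reads. Of these 16, 9 were called without double negative replicate 1 and 9 without replicate 2. A low share was also seen outside epithelial genes. None of the 28 endothelial, 25 neuronal and glial or 22 myeloid genes of the lists was in the table. Of 24 muscle genes, 3 were in it, with 1, *pvalb2*, called lower and 2 called higher (35.8% and 63.8% of all genes tested). *pvalb2*, which encodes a parvalbumin, had 17.3 and 169 normalized read counts in the double negative libraries. By limma its call was lost with either of these left out, and 1 of the 2 higher calls was lost with size factors recomputed over the table.

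**Figure D5:**
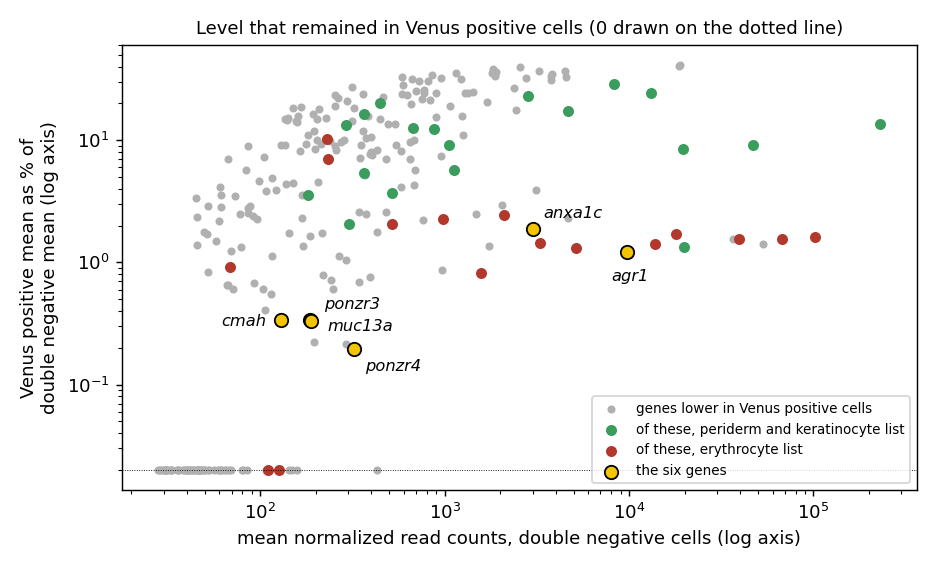
Venus positive mean as a percentage of the double negative mean (log axis) against the double negative mean in normalized read counts (log axis), for the 271 lower genes, with genes at 0 drawn on the dotted line. *agr1* at 1.21% and *anxa1c* at 1.87% lie near the erythrocyte genes, and the keratinocyte genes lie higher, with a median of 12.3%.

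The genes with the most similar pattern were found by the root mean square difference of log2(normalized read count + 1), centred on each gene, over the 4 libraries. Candidates had to reach 100 normalized read counts on average over these libraries and to have no automatic identifier. *muc13a*, *ponzr3* and *cmah* did not reach this level, so they could not be named as near genes of the other members. For *agr1* these were the globin genes *hbae1* (0.15), *hbbe1.3* (0.21) and *hbae3* (0.23), which had 38749 and 68209, 49224 and 86226, and 8913 and 18656 normalized read counts in the double negative libraries. For *anxa1c* they were the keratin gene *krt17* (0.28), the N-myristoyltransferase gene *nmt1b* (0.53) and *alas2* (0.54), which encodes an enzyme of heme synthesis in erythroid cells. The nearest candidate of *muc13a* (0.33), *ponzr3* (0.31) and *ponzr4* (0.31) was *npvf*, which encodes a hypothalamic neuropeptide precursor. *npvf* had 162 and 424 normalized read counts in the double negative libraries. Like each of these genes, it had 1 and 0 reads in the Venus positive libraries. *icn2* was second for *muc13a* (0.34) and *agr1* second for *ponzr3* (0.36) and *ponzr4* (0.70). The nearest candidate of *cmah* was *krt17* (0.62), followed by *anxa1c* (0.65). The nearest candidates over these 4 libraries thus included red cell, neural and epithelial genes. In the matches with *npvf*, the Venus positive part rests on a single read per gene. All candidates came from a table selected by the group difference, so a near pattern does not name a cell type. The search did not compare *muc13a*, *ponzr3* and *cmah* with one another.

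The gene used for the sort followed the labels. *apln* had 651 and 802 normalized read counts in the double negative and 11006 and 8899 in the Venus positive libraries. Of the 30 connective tissue genes, 16 were in the table and all 16 were called higher, beside 63.8% of all genes tested. With size factors recomputed over the table, which shift log2 differences down by construction, 2 were called and 2 lay below 0. Of the 16, 4 were called without double negative replicate 1 and 6 without replicate 2. Each library held between 876579 and 1175560 reads of the table's genes. Total sequencing depth was not given in the sources used here, nor was the clutch or sort of each library. The p-values behind the calls therefore reflect only how these 4 libraries spread, which may be technical.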

How the data were processed

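Cells were sorted by FACS, and RNA was sequenced after Smart-seq2 amplification. The authors filtered reads with SOAPnuke, mapped them with HISAT2 to GRCz11, aligned them with Bowtie2 to a gene set, estimated expression with RSEM and tested it with DESeq2. Per the submitters' processing notes, the versions were HISAT2 2.0.4, Bowtie2 2.4.4 and RSEM 1.2.28. The deposited table holds 756 genes, each with an authors' adjusted p under 0.05. It gives the authors' normalized read counts, a signal of reads divided by a size factor. It also gives RSEM's estimated counts and the authors' TPM. Fold changes, p-values and adjusted p-values of the authors' comparisons (22 columns) were not used. Venus positive libraries are numbered 3 and 4 in the table but 1 and 2 in the labels, so only their normalized read counts were taken, as libraries with no replicate number, and 8 per-library columns were left out.

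Every normalized read count was a whole multiple of the smallest value in its library (tolerance 1e-06), which gave the reads and the size factors of 1.22 and 0.98 (double negative replicates 1 and 2) and 0.80 and 1.15 (libraries 3 and 4). In the double negative libraries these reads equalled the estimated counts raised to the next whole number for all 756 genes. A count model had been planned, but it was not run on the recovered reads. Because normalized values were taken for the Venus positive libraries, the groups were compared with limma 3.58.1 (R 4.3.3) on log2(normalized read count + 1), ~ group, two-sided, with Benjamini-Hochberg adjustment over 754 genes with at least 10 reads in at least 2 libraries. The method was tested on simulated data. Counting intervals were exact (Clopper-Pearson, scipy 1.17.1). The rule for named genes took the 6 members, listed genes of 14 gene lists, and the 3 genes of most similar pattern. The *npvf*, *foxa1* and *apln* values follow from that rule or from the sort. Members and lists were chosen with earlier results of these data known. Gene IDs were looked up in RefSeq's gene table for the GRCz12tu assembly (737 of 756 found, all 6 members included). No sequences were used here.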

Additional observations from a re-analysis of the deposited data

How the results depend on the processing

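Over 8 alternative settings, all 6 genes kept the lower direction, which was fixed in advance. For each gene every Venus positive value lay below every double negative value. Leaving out a library, the filter and the pseudocount therefore could not reverse the direction. Size factors recomputed over the table's genes (RLE) shift the median log2 difference by -1.86 by construction, since most listed genes are higher. They gave -8.22 for *agr1*, -7.68 for *anxa1c*, -7.97 for *muc13a*, -7.50 for *cmah*, -8.03 for *ponzr3* and -8.90 for *ponzr4*, and left 68 genes called higher in place of 481. A pseudocount of 10, chosen after seeing the data, gave -4.06 for *muc13a*, -3.62 for *cmah*, -4.11 for *ponzr3* and -4.94 for *ponzr4*. A pseudocount of 0.5, also added afterwards, gave -8.40 for *ponzr4*. Leaving out each library in turn gave 102 to 254 genes called lower and 96 to 437 called higher, with the smallest numbers when a double negative library was left out. The 6 genes ranged from -6.69 to -6.03 for *agr1*, -6.48 to -5.21 for *anxa1c*, -7.53 to -6.06 for *muc13a*, -7.09 to -5.77 for *cmah*, -7.44 to -6.27 for *ponzr3* and -8.31 to -7.13 for *ponzr4*. Matching by gene ID gave 4 periderm and keratinocyte genes called higher in place of 2. Of the 48 values of the 6 genes under these settings, 37 moved by less than the spread between replicates. Most of this was fixed in advance. Values with a library left out could not move further, because the spread was computed from the same libraries. The filter on low counts does not enter a gene's own difference. The 37 include all values of both kinds. With recomputed size factors all 6 genes moved by more than the spread.

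No paired analysis was possible because the Venus positive libraries are numbered 3 and 4 in the table and these numbers are not in the labels. Planned count models, other count normalizations and other rounding were not run, although whole reads were recovered from the normalized values of the Venus positive libraries. With 2 libraries a group and a table of selected genes, the size of each decrease is limited by the reads in Venus positive cells for the 4 genes with a single read.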
